A study of Mus musculus with 14 samples.

Results

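The neurotransmitter receptor genes were taken as the autosomal protein-coding RefSeq genes of the mouse build mm10 whose symbols name a subunit or subtype of the GABA-A, AMPA, NMDA, kainate, delta, metabotropic glutamate, glycine, serotonin, nicotinic, muscarinic, dopamine or adrenergic receptors. The symbols were matched by their opening letters and not by any measured value. Earlier results of these data were known when the set was chosen. Of 95 symbols that matched, 4 (Htra1 to Htra4) encode HtrA serine peptidases and were left out. The remaining 91 receptor genes, of 20665 autosomal protein-coding genes in all, lay at 73 loci when genes closer than 500 kb were joined. They comprised 53 genes for ligand-gated channel subunits and 38 for G protein-coupled receptors.

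The libraries came from chromatin immunoprecipitation and sequencing (ChIP-seq) of cultured mouse cells labelled PDGF Neural Stem Cells. The series text describes them as mouse DIPG cells, after a glioma of the pons in children. H3WT cells expressed wild-type histone H3.3 and K27M cells expressed H3.3 carrying the K27M mutation of the glioma. Cells of each genotype received DMSO, the solvent, or EPZ6438, an inhibitor of the methyltransferase Ezh2, at 3 µM for 12 days. Trimethylation of lysine 27 of histone H3 (H3K27me3) was profiled in 2 libraries per genotype under DMSO and 2 per genotype under EPZ6438 (EPZ below), and Suz12 and Ring1b in 1 library per genotype under DMSO. How the histone was introduced, whether a genotype was 1 clone and whether replicates were separate cultures are not given in the sources used here, so the spread between replicates may be technical. RNA was not measured, and the labelled cell type could not be checked against expression.

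Neurotransmitter receptors sit in the membrane of neurons and some glia and turn a released transmitter into an ion current or an intracellular signal. Ligand-gated channels are assembled from several subunits, each from its own gene, and G protein-coupled receptors are single proteins that signal through second messengers. Most of these genes are switched on as neurons mature and many are silent in proliferating neural progenitors. H3K27me3 is the repressive mark that Polycomb repressive complex 2 deposits through Ezh2, with Suz12 as a core subunit, and Ring1b is the catalytic subunit of Polycomb repressive complex 1, which can bind the mark. The K27M histone is known to reduce H3K27me3 over much of the genome while some sites keep it.

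A gene is called marked in a library where a deposited peak overlapped, by at least 1 bp, the stretch within 1 kb of its start or its end. Covered length is the number of kilobases that peaks take up in the 10 kb on each side of a gene's ends, so it describes the width of called regions and not the amount of the mark. The deposited H3K27me3 lists differed in size even within groups, with 13358 and 59899 peaks in the H3WT DMSO replicates, 2351 and 17980 in the K27M DMSO replicates and 201 to 340 in the 4 EPZ libraries. The Suz12 lists held 631 (H3WT) and 1252 (K27M) peaks and the Ring1b lists 1754 and 1808. The depth in reads is unknown, and a longer list can come from deeper sequencing as well as from more marked chromatin, so each count of receptor genes is given beside the same count over all genes. No test of the receptor genes against other genes was made, and differences from them are descriptions.

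A larger share of the receptor genes than of all genes was marked by H3K27me3 in H3WT cells under DMSO. Replicate 1 marked 49 of the 91 (53.8%), against 10.7% of all genes, and replicate 2 marked 64 (70.3%), against 20.8%. All 49 genes of replicate 1 were also marked in replicate 2, so 49 receptor genes were marked in both, against 10.6% of all genes. A further 15 were marked in replicate 2 alone, the longer list, and 27 in neither. The mean covered length of the 91 genes was 3.37 and 8.32 kb in the H3WT replicates, against 1.14 and 2.99 kb over all genes. In K27M cells in DMSO, replicate 1 marked 19 receptor genes (20.9%, all genes 4.62%) and replicate 2 marked 41 (45.1%, all genes 10.0%). The share of receptor genes was above that of all genes in each of the 4 DMSO libraries, while both shares were lower in K27M than in H3WT at each replicate number.

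**Figure D1:**
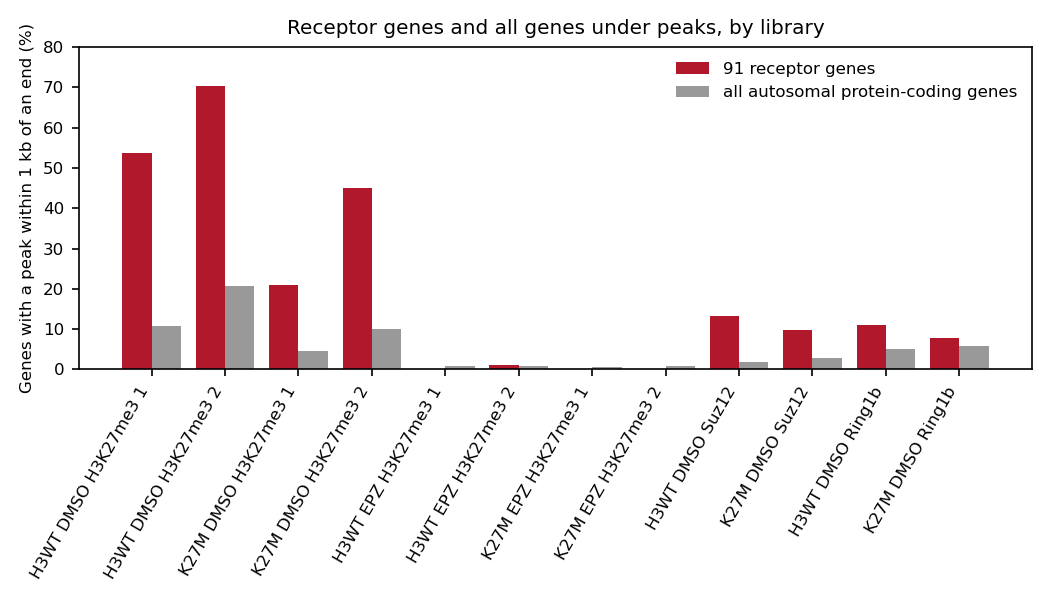
Share of the 91 receptor genes (red) and of all 20665 autosomal protein-coding genes (grey) with a peak within 1 kb of a gene end, in percent, for each of the 12 libraries on the x axis (H3K27me3 libraries with their replicate number). The red bars stand above the grey ones in the 4 DMSO H3K27me3 libraries, at 53.8% against 10.7% in H3WT replicate 1, and are at or near 0 in the 4 EPZ libraries.

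Promoter sequences of 5 receptor genes are shown because they span the outcomes described here. Grin1 and Grik3 were marked in all 4 DMSO libraries, Htr5a was marked in H3WT and not in K27M, and Chrna4 and Chrna10 were not marked at their gene ends in H3WT. Each is the 250 bases before the transcription start in RefSeq (GRCm38.p6, the sequence of mm10), written 5′ to 3′ on the gene's own strand with CG pairs in capitals. Grin1 lies at chr2:25319188-25319437 (minus strand) with 27 CG pairs, Grik3 at chr4:125490446-125490695 (plus strand) with 42, and Htr5a at chr5:27841697-27841946 (plus strand) with 13. Chrna4 lies at chr2:181039178-181039427 (minus strand) with 24, and Chrna10 at chr7:102116714-102116963 (minus strand) with 1. Grik3 was added after its values were seen.
Grin1: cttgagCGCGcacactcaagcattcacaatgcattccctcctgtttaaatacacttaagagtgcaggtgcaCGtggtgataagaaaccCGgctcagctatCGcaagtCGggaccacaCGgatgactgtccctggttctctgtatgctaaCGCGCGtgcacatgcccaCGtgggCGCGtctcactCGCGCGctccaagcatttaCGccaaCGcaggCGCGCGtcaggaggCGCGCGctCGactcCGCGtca
Grik3: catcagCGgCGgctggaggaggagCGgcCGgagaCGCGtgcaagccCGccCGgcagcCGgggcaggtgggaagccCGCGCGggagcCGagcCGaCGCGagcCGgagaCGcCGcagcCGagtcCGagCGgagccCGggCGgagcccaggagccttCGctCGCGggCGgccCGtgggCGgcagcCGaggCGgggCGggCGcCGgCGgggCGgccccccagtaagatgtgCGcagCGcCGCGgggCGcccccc
Htr5a: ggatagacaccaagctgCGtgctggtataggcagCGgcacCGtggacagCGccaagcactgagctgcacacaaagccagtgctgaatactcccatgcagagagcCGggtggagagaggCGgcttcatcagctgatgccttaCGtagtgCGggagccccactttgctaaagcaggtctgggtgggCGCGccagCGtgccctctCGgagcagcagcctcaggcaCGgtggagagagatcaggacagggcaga
Chrna4: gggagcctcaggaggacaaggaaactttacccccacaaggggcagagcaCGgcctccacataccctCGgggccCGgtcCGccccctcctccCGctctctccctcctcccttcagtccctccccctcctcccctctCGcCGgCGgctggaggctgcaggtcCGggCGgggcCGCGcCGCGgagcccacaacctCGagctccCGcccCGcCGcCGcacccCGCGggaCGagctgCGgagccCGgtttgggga
Chrna10: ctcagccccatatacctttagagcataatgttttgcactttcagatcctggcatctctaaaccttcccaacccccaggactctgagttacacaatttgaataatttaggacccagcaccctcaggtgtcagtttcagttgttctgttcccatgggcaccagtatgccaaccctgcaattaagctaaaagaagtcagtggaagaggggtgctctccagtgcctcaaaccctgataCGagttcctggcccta

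The printed Grik3 bases lie under an H3K27me3 peak in all 4 DMSO libraries, together with a Suz12 peak in H3WT. The Grin1 bases lie under a peak in both H3WT replicates and in neither K27M replicate, although Grin1 stayed marked in K27M at its other end. The Htr5a bases lie under a peak in both H3WT replicates alone. The Chrna4 bases lie under H3K27me3 peaks in both H3WT replicates and in K27M replicate 2, and under Ring1b peaks in both genotypes. This start site is 4.3 kb inside the gene boundary of the RefSeq table, so the rule on gene ends missed it and Chrna4 counts as unmarked throughout. No peak of any library lies over the Chrna10 bases.

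Among the ionotropic glutamate receptors in H3WT DMSO, 6 of 7 NMDA genes were marked in both replicates, 3 of 5 kainate genes and 0 of 3 AMPA genes (10.6% of all genes). NMDA receptors are the calcium-permeable glutamate channels of synaptic plasticity, built from an obligatory Grin1 subunit with Grin2 or Grin3 subunits. AMPA receptors, encoded by Gria genes, carry the fast excitatory current. Gria2, whose subunit makes AMPA receptors impermeable to calcium, had no covered length in any library, and Gria1 and Gria4 had 1.23 and 1.33 kb in H3WT replicate 2 alone, away from their ends.

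Grin1 (chr2:25291177-25319187, minus strand) had the largest mean covered length of the receptor genes over the 4 DMSO libraries. It was 16.0 and 28.3 kb in the H3WT replicates and 5.10 and 11.5 kb in the K27M replicates, or 22.2 ± 8.67 kb against 8.29 ± 4.51 kb (SD, n = 2 libraries each). The values of the genotypes did not overlap. In H3WT replicate 1, peaks covered both the promoter (-0.541 to 0.812 kb from the gene start) and the 3′ end. In K27M replicate 1 a single peak of 5.10 kb was left at the 3′ end, at chr2:25288444-25293539, where an end of the neighbouring genes Tmem210 and Lrrc26 also lies within 1 kb. K27M replicate 2 had a peak at the 3′ end and another at -2.58 to -0.828 kb from the gene start. The Suz12 peaks, 3.79 kb wide in H3WT and 4.39 kb wide in K27M, lay over this 3′ end and not over the Grin1 promoter.

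Grin2b (chr6:135713221-136173615), the Grin2 subunit that predominates in the developing brain, had 10.2 and 15.6 kb in H3WT and 6.40 and 11.3 kb in K27M, so the groups overlapped. Grin2c, a subunit best known from the cerebellum, had 8.36 and 19.3 kb in H3WT and 1.89 and 11.2 kb in K27M, also overlapping. Grin2d (5.62 and 11.6 kb against 3.03 and 6.38 kb) had its K27M peak 33.1 to 39.5 kb from the gene start, at the 3′ end, with no peak within 1 kb of the start in either K27M replicate. An end of the neighbouring gene Grwd1 lay within 1 kb of the replicate 2 peak. Grin3b, a glycine-binding subunit with a gene of 6.79 kb, had the smallest mean covered length over the 4 DMSO libraries of the genes marked in all of them, at 3.07 and 3.83 kb against 2.22 and 3.41 kb. Grin2a, which takes over from Grin2b as synapses mature, had 4.48 and 9.29 kb in H3WT, 0 in K27M replicate 1 and 1.94 kb in K27M replicate 2. Grin3a had no covered length in any library.

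Kainate receptors modulate transmission before and after the synapse. Grik3 (chr4:125490259-125714173, plus strand) had 16.4 and 19.8 kb in H3WT and 6.26 and 11.2 kb in K27M (18.1 ± 2.40 against 8.73 ± 3.49 kb, SD, n = 2 each), with no overlap between the groups. Its peak lay over the promoter in every DMSO library and was narrower in K27M on both sides, reaching from -2.33 to 3.93 kb of the gene start in K27M replicate 1 against -9.20 to 5.28 kb in H3WT replicate 1. Grik1 was marked in H3WT and in K27M replicate 2, Grik2 and Grik4 at their ends in H3WT replicate 2 alone, and Grik5, an auxiliary high-affinity subunit, in H3WT alone with 1.02 and 3.88 kb at its 3′ end. The RefSeq promoter of Grik2 lay under a peak in both H3WT replicates, so the rule on gene ends missed it in replicate 1.

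The genes of inhibitory receptors were marked in part. Of 16 GABA-A subunit genes, whose products form the chloride channels of fast inhibition, 7 were marked in both H3WT replicates (among them Gabra4, Gabra5, Gabrb1, Gabrg3 and Gabrd), 4 in 1 replicate and 5 in neither. Gabrd (chr4:155384979-155398098), a subunit of extrasynaptic receptors, had 5.64 and 21.3 kb in H3WT and 1.90 and 5.48 kb in K27M. It was the only GABA-A gene marked in both K27M replicates, and the other 6 were marked in K27M replicate 2 alone. Gabra5, an alpha subunit enriched in the hippocampus, had 7.75 and 15.1 kb in H3WT, 0 and 6.26 kb in K27M. Of the 2 glycine receptor genes, Glra1 was marked in H3WT with 1.33 and 2.99 kb and had no cover in K27M, and Glra3 was marked in H3WT replicate 2 alone.

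Several GABA-A and nicotinic subunit genes lie side by side, so that neighbours share peaks and are not independent counts. On chromosome 7, the neighbours Gabra5 and Gabrg3 were both marked in K27M replicate 2 and not in replicate 1. In the cluster of chromosome 5, Gabra4 and Gabrb1 shared peaks of 2.94 kb (H3WT replicate 1), 5.07 kb (H3WT replicate 2) and 1.45 kb (K27M replicate 2), while Gabrg1 and Gabra2 had no cover in any library. On chromosome 11, Gabrb2 was marked in H3WT replicate 2 alone and Gabra6 in neither replicate. Counted as loci of receptor genes, the clusters reduce the 91 genes to 73.

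Of the 16 nicotinic acetylcholine receptor genes, 6 were marked in both H3WT replicates, and these fell into opposite classes in K27M. Chrna5, Chrna3 and Chrnb4 form a cluster on chromosome 9 (chr9:54980827-55048953) and encode subunits of the receptor of autonomic ganglia and the habenula. Each of the 3 was marked in all 4 DMSO libraries. Chrna5 had 4.48 and 28.6 kb in H3WT and 2.99 and 9.57 kb in K27M, Chrna3 had 5.89 and 23.5 kb against 4.04 and 5.43 kb, and Chrnb4 had 5.89 and 15.9 kb against 4.04 and 5.43 kb. Chrna3 and Chrnb4 shared their K27M peak, which lay at the Chrna3 start and within 1 kb of the 3′ end of Chrnb4. The H3WT replicates differed more at Chrna5 than at the other named genes, with a mean of 16.5 ± 17.0 kb (SD, n = 2).

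The other 3 marked nicotinic genes had no cover in either K27M library. Chrnd, the delta subunit of the muscle receptor, had 3.38 and 14.3 kb in H3WT. Chrna2 had 2.0 and 15.2 kb, and Chrna7, the subunit that forms homomeric receptors in brain, had 1.22 and 3.2 kb. Chrnd and Chrna2 thus exceeded several genes that kept a peak in their H3WT replicate 2 values, and were low in H3WT replicate 1. Of the muscarinic genes, Chrm2, an inhibitory G protein-coupled receptor, was marked in all 4 libraries with 4.36 and 13.9 kb against 1.01 and 5.63 kb, Chrm4 was marked in 3, and Chrm1, Chrm3 and Chrm5 were unmarked in H3WT.

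Of the monoamine receptor genes in H3WT, 5 of 6 alpha adrenergic genes, 4 of 5 dopamine genes, 8 of 11 genes for G protein-coupled serotonin receptors and 1 of 3 beta adrenergic genes were marked in both replicates. Adrb3 was the marked beta adrenergic gene, with 4.62 and 6.80 kb against 0 and 4.77 kb in K27M. The alpha-2 genes encode receptors that dampen noradrenaline release, and Adra2a, Adra2b and Adra2c were each marked in all 4 DMSO libraries. Adra2c (chr5:35278566-35281763, plus strand) had 14.3 and 19 kb in H3WT and 5.96 and 9.08 kb in K27M (16.6 ± 3.32 against 7.52 ± 2.21 kb, SD, n = 2 each), without overlap. Adra2b had 12.5 and 16.1 kb against 3.75 and 9.92 kb, also without overlap. Adra2a (chr19:54045259-54048982, plus strand) had 5.43 and 8.48 kb against 3.74 and 6.07 kb, and there the groups overlapped. Adra1d, a receptor coupled to calcium release, had 8.59 and 16.1 kb in H3WT but 1.07 and 10.9 kb in K27M, so the genotypes overlapped.

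Dopamine receptor genes were mostly of the class marked in K27M replicate 2 alone. Drd2 (chr9:49340360-49408177, plus strand), the inhibitory receptor of the striatum and pituitary, had the widest single-library cover of any receptor gene, at 12.1 and 28.8 kb in H3WT, and 0 and 5.84 kb in K27M. Drd5 had 5.63 and 17.9 kb against 0 and 3.73 kb, and Drd1, the excitatory receptor of the striatum, 1.89 and 6.75 kb against 0 and 3.29 kb. Drd4 was marked in all 4 libraries, with 4.92 and 9.73 kb against 2.55 and 8.19 kb. Drd3 had no cover in any library.

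Serotonin receptor genes included 4 of the 9 receptor genes that had a peak in both H3WT replicates and none in K27M. Htr7 (chr19:35958415-36058133, minus strand), which raises cyclic AMP, was the only serotonin receptor gene marked in all 4 DMSO libraries, with 14.1 and 23.1 kb in H3WT and 2.20 and 11.1 kb in K27M (18.6 ± 6.41 against 6.65 ± 6.30 kb, SD, n = 2 each). Htr1a, the somatodendritic autoreceptor, had 7.09 and 16.5 kb against 0 and 2.16 kb, and Htr6 had 4.90 and 15.6 kb against 0 and 10.5 kb. Htr1d was of the same kind. Htr5a had 2.61 and 13.1 kb in H3WT, Htr5b 1.34 and 11.1 kb and Htr1b, the terminal autoreceptor, 2.43 and 8.09 kb, each with 0 in both K27M replicates. The fourth such gene lies on chromosome 18. The channel genes Htr3a and Htr3b were marked in H3WT replicate 2 alone.

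Of the 8 metabotropic glutamate receptor genes, 5 were marked in both H3WT replicates. Grm6 and Grm8, of the group III receptors that lower cyclic AMP, were marked in all 4 DMSO libraries. Grm6, the receptor of retinal ON bipolar cells, had 6.12 and 9.87 kb against 4.19 and 6.59 kb, and Grm8 had 4.18 and 16.5 kb against 1.88 and 3.86 kb. Grm2, Grm4 and Grm7 were marked in H3WT and in K27M replicate 2, where their covers were 1.85, 5.79 and 1.04 kb. Grm5, a receptor that signals through phospholipase C, and Grm3 had no cover in any library.

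**Figure D2:**
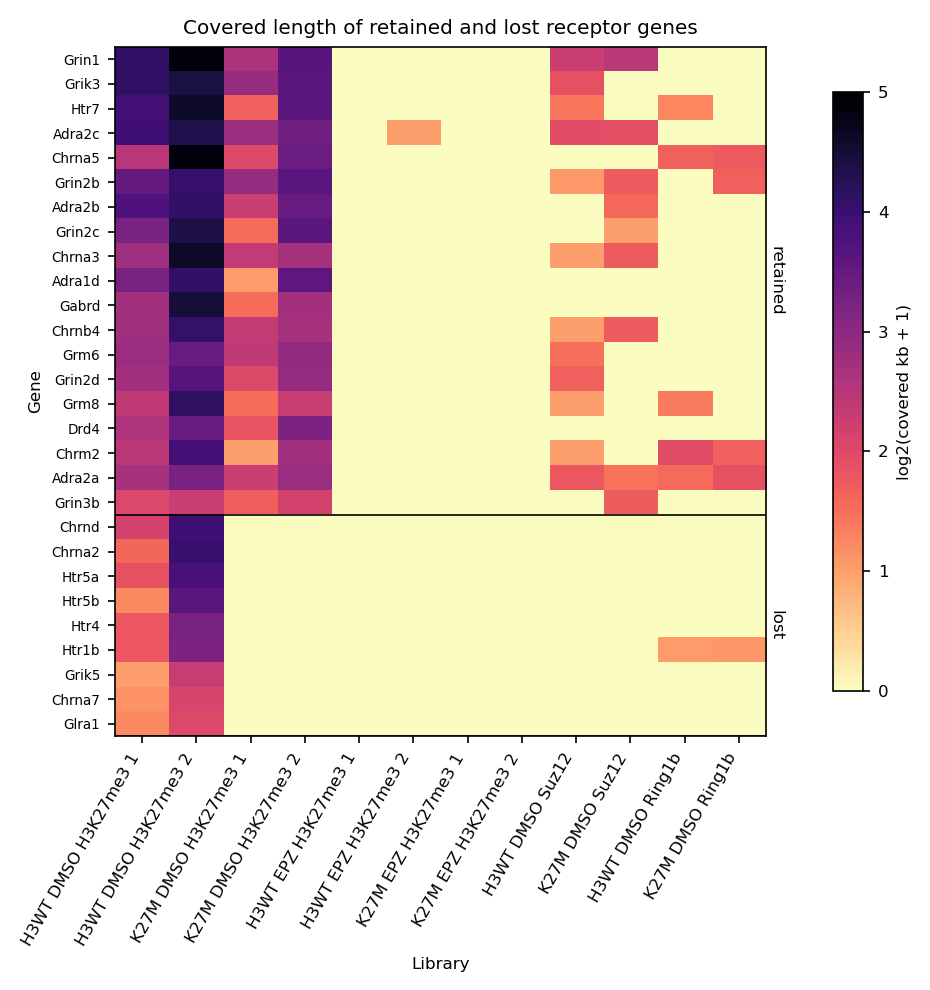
Covered length of the 19 receptor genes retained and the 9 lost in K27M (rows, ordered by class and by mean over the 4 DMSO libraries) in each of the 12 libraries (columns), coloured by log2(covered kb + 1), with a line between the classes. The Grin1 row is the widest on average, and the EPZ columns are empty except for Adra2c in H3WT EPZ replicate 2.

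Setting K27M beside H3WT under DMSO asks which receptor genes kept the mark in cells with the mutant histone. Of the 49 genes marked in both H3WT replicates, 19 (38.8%) were marked in both K27M replicates and are called retained, 21 (42.9%) were marked in 1 and are called partial, and 9 (18.4%) were marked in neither and are called lost. Among all 2187 H3WT-marked genes the shares were 42.8% retained, 38.4% partial and 18.8% lost, so the receptor genes were distributed over the 3 classes much as marked genes were in general. No receptor gene was marked in both K27M replicates and neither H3WT replicate, and this was also rare overall (0.0145%). All 21 partial genes were marked in replicate 2 alone, so the short K27M replicate 1 list set the size of the retained class. With replicate 2 alone, 41 receptor genes were marked in both genotypes and 23 in H3WT alone. With 2 libraries against 2, the smallest two-sided p of an exact permutation test is 0.333, so no gene could be called different between genotypes.

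By family, 5 of the 6 marked NMDA genes and 4 of the 5 marked alpha adrenergic genes were retained, against 1 of 7 GABA-A, 1 of 4 dopamine and 1 of 8 serotonin G protein-coupled receptor genes. Between them lay the nicotinic (3 of 6), metabotropic glutamate (2 of 5) and kainate genes (1 of 3). Among all H3WT-marked genes 42.8% were retained. For the NMDA, alpha adrenergic, GABA-A and dopamine genes the contrast came from K27M replicate 1 alone. K27M replicate 2 marked every H3WT-marked gene of these families. Of the channel genes 10 were retained, 9 partial and 5 lost, and of the G protein-coupled receptor genes 9, 12 and 4. Of the retained NMDA genes, Grin1 in K27M replicate 1 and Grin2d in both K27M replicates were marked at the 3′ end alone. With peaks of at least 3 kb, Grin2c, Grin3b and Adra1d left the retained class, and so did Gabrd, Drd4 and Htr7. The families are small and no test of these differences was made.

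Covered length at the marked receptor genes was lower in K27M. Both K27M values lay below both H3WT values at 34 of the 49 H3WT-marked receptor genes, against 50.9% of all H3WT-marked genes, and at 9 of the 19 retained ones, against 27.7% of all retained genes. Set side by side by replicate number, K27M was lower in both replicates at all 49 (89.5% of all H3WT-marked genes). It was also lower at all 19 (77.4% of all retained genes). The labels do not say whether equal numbers pair the libraries, and replicate differences correlated at 0.35 between the DMSO groups. The 49 were chosen for peaks in both H3WT libraries alone, which partly sets the lower K27M values. The 21 partial and 9 lost genes had no cover in K27M replicate 1, and the lost ones none in replicate 2. The K27M cover of the 19 was a median of 45.1% of the H3WT cover in replicate 1 (range 12.4% to 72.5%) and 54.9% in replicate 2 (range 23.1% to 88.8%). The same medians over all 936 retained genes were 65.6% and 78.1%. The smallest shortening in both replicates was at Grin3b, by 27.5% and 11.2%, and Adra1d had the largest in replicate 1, by 87.6%. The lower values moved with the shorter K27M peak lists, and the part of list length in them was not tested.

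**Figure D3:**
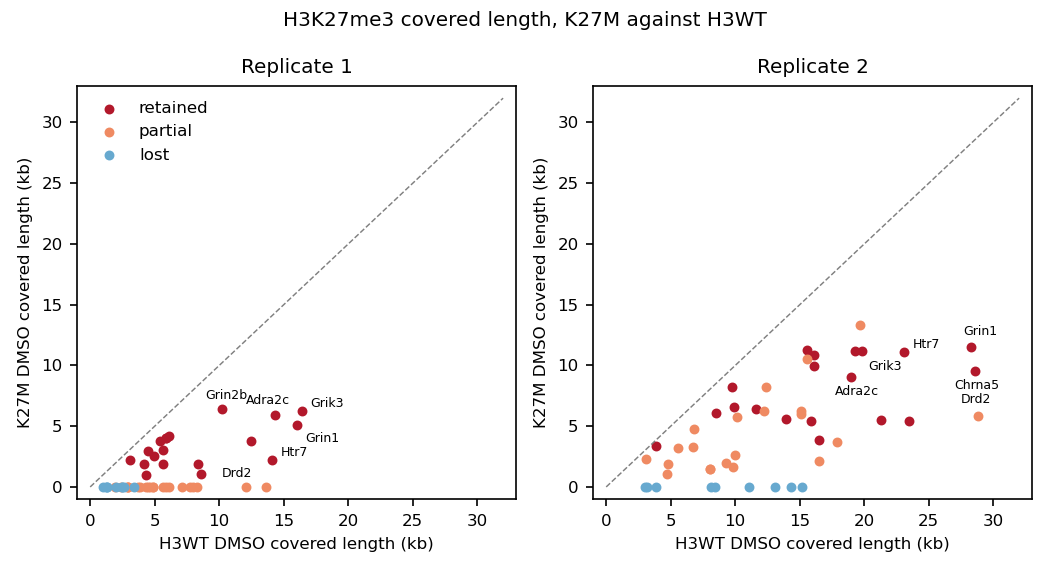
Covered length of H3K27me3 (kb) in K27M DMSO on the y axis against H3WT DMSO on the x axis for the 49 H3WT-marked receptor genes, in replicate 1 (left) and replicate 2 (right), coloured by class, with a dashed line of equal length. Each point lies below the line in both panels, and the partial genes lie at 0 in replicate 1 and above 0 in replicate 2.

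Retained receptor genes had shorter median covered lengths than retained genes in general. Their median covered length was 5.89 and 16.1 kb in H3WT and 3.03 and 8.19 kb in K27M, against 11.1, 18, 6.18 and 12.5 kb over all retained genes in the same order. Lost receptor genes had low cover in H3WT replicate 1, a median of 2.0 kb against 2.49 kb over all lost genes. Partial receptor genes were long, with a median gene length of 88.6 kb against 18.1 kb for the retained and 19.7 kb for the lost ones, while partial genes overall had a median of 25.6 kb. Single peaks at receptor genes had a median width of 3.78 and 5.34 kb in H3WT (all genes 3.77 and 4.0 kb) and of 3.01 and 3.86 kb in K27M (all genes 4.57 and 4.52 kb). At receptor genes they were thus no narrower than elsewhere in H3WT and narrower in K27M.

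EPZ6438 left almost no H3K27me3 peak at receptor genes, and few at genes in general. The H3WT EPZ replicates marked 0 and 1 of the 91 (0.91% and 0.798% of all genes), and the K27M EPZ replicates 0 and 0 (0.532% and 0.881%). The single gene was Adra2c in H3WT EPZ replicate 2, where a peak of 1.02 kb lay 1.80 to 2.82 kb after the gene start, inside the 8.59 kb peak of H3WT DMSO replicate 1. Of the 19 retained receptor genes this 1 was marked in any EPZ library, against 21.5% of all retained genes. Covered length at Adra2c was 5.96 to 19 kb in the 4 DMSO libraries and 0, 1.02, 0 and 0 kb in the 4 EPZ libraries. Every other receptor gene had 0 in all 4 EPZ libraries.

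At 19 of the 91 receptor genes all 4 DMSO values lay above all 4 EPZ values, against 6.55% of all genes. These are the 19 retained genes, since a gene with 0 in a DMSO library cannot separate from EPZ values of 0. In a two-sided exact permutation test over the 70 relabellings of 4 DMSO and 4 EPZ libraries, run on the 8592 genes with any cover, the smallest possible p was 0.0286. After Benjamini-Hochberg adjustment over these genes the smallest adjusted p of the permutation test was 0.181, shared by the 19 genes, so 0 genes passed 0.05. At an unadjusted p below 0.05 there were 1354 genes (15.8%), 19 of them receptor genes (25.3% of the 75 with cover). The DMSO libraries enter both this comparison and the one between genotypes.

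Suz12 peaks at receptor genes lay mostly where H3K27me3 was retained, as they did over all genes: 91.7% of receptor genes with a Suz12 peak in H3WT and 88.9% in K27M were retained, against 93.5% and 91.2% of all genes with one. In H3WT, 12 of the 91 genes had a Suz12 peak (1.79% of all genes), and in K27M 9 (2.81%). Of the 12 in H3WT, 11 belonged to the 19 retained genes (36.9% of all retained genes had one), 1 to the 21 partial genes (2.5% of all partial genes) and 0 to the 9 lost genes (0.485% of all lost genes). In K27M, 8 of the 19 retained genes had a Suz12 peak, against 56.6% of all retained genes. Only 5 of the 12 genes with a Suz12 peak in H3WT had one in K27M, against 75.6% of all genes with one in H3WT. With 1 Suz12 library per genotype these differences have no replicate check.

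The 5 genes with Suz12 in both genotypes were Grin1, Grin2b, Adra2a, Adra2c and Chrna3. At Adra2c the Suz12 peaks were 2.83 kb wide in H3WT and 2.74 kb in K27M, and at Grin2b 1.09 and 2.31 kb. Suz12 was called in H3WT alone at 7 genes, among them Grin2d, Grik3, Grm6, Grm8, Chrm2 and Htr7, with peaks of 1.00 kb (Grm8) to 2.63 kb (Grik3). The Grin2d peak lay at the 3′ end, 36.7 to 38.9 kb from the gene start. Suz12 was called in K27M alone at Grin2c, Grin3b, Adra2b and Grm4, with 1.00 kb at Grin2c and 2.85 kb at Grm4.

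Ring1b marked fewer retained receptor genes than Suz12 did in H3WT. It was called at 10 of the 91 genes in H3WT (4.96% of all genes) and at 7 in K27M (5.82%). Of the 19 retained genes 5 had a Ring1b peak in H3WT, against 45.2% of all retained genes, and 4 in K27M, against 52.1%. Of the 10 genes with Ring1b in H3WT, 6 had it in K27M, against 79.1% of all such genes. Those 6 included Adra2a, Grid1, Chrm2, Chrna5 and Htr1b, and the 4 with Ring1b in H3WT alone were Grm8, Chrm3, Chrm4 and Htr7. Grin2b had it in K27M alone.

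Several receptor genes showed Ring1b and H3K27me3 apart, as a large share of all genes with Ring1b did. Of the 10 receptor genes with Ring1b in H3WT, 2 were unmarked by H3K27me3 in both H3WT replicates, against 41.7% of all such genes. Of the 7 with Ring1b in K27M it was 1, against 47.0%. Lost genes were 1 of these 7, against 0.998% of all genes with Ring1b in K27M. Htr1b (chr9:81628291-81633832, minus strand) had a Ring1b peak in H3WT (1.05 kb) and in K27M (1.12 kb) just inside its gene start, yet no H3K27me3 peak in either K27M replicate. Grid1, a delta subunit gene, had Ring1b peaks of 1.14 and 1.57 kb and was unmarked by H3K27me3 at its ends in both genotypes. Chrm3 had a Ring1b peak of 1.00 kb in H3WT and no H3K27me3 cover in any library. Adra2a alone had a peak in all 4 Suz12 and Ring1b libraries, all at most 2.81 kb from its gene start and inside its H3K27me3 domain of every DMSO library.

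**Figure D4:**
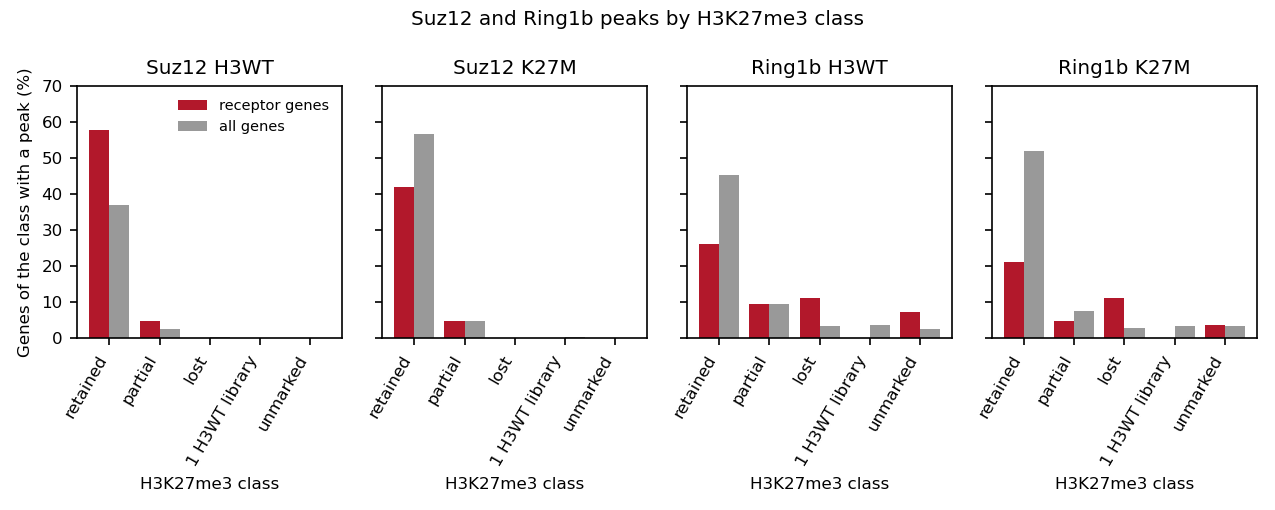
Share of genes, in percent, with a Suz12 or Ring1b peak within 1 kb of a gene end, by H3K27me3 class on the x axis (retained, partial, lost, marked in 1 H3WT library, unmarked), for receptor genes (red) and all genes (grey), in 1 library per panel. Suz12 bars are high in the retained class alone, at 57.9% of receptor genes and 36.9% of all genes in H3WT, whereas Ring1b bars of all genes appear in every class.

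The position of the mark could be read for the 64 receptor genes with a promoter entry in RefSeq, which gives the strand. In H3WT replicate 1, 31 of the 33 marked ones (93.9%) were marked at the gene start, 8 of them also at the end, and in K27M replicate 1 the figure was 13 of 16 (81.2%), with Grin1, Grin2d and Chrnb4 marked at the 3′ end alone. Over all genes with an entry, 87.3% and 91% of the marked ones were marked at the start in these libraries. Replicate 2 showed the opposite order, with 88.9% of marked receptor genes marked at the start in H3WT and 93.3% in K27M (all genes 83.9% and 89.1%). The promoter itself lay under an H3K27me3 peak at 29 and 35 of the 64 genes in the H3WT replicates (7.07% and 12.6% of all 16457 genes with an entry) and at 10 and 25 in the K27M replicates (3.17% and 6.77%).

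By class medians, receptor genes marked at their ends had promoters richer in CG pairs than those unmarked there. The promoter could lie far from the gene start at which marking was read. The distance was 55.4 kb at Chrm5 and 32.2 kb at Chrna9, both unmarked, and 80.9 kb at Gabra5, a partial gene. It was 8.11 kb at Drd3, 5.3 kb at Gabrr2, 4.3 kb at Chrna4 and 4.15 kb at Htr2b, all unmarked. At the marked genes Grin2d and Grik5 it was 4.41 and 3.22 kb. Most of these genes were unmarked, so the median of the unmarked class rests partly on promoters away from where marking was read. Chrna4 counts as unmarked although its promoter lay under H3K27me3 peaks in both H3WT replicates. In the window of 300 bases from 250 before to 50 after the start, the 16 retained genes with an entry had a median of 17 CG pairs, the 13 partial genes 22, the 4 lost genes 12.5, the 12 genes marked in 1 H3WT library 10 and the 19 unmarked genes 4. Over all genes the medians of the same classes were 20, 15, 10, 8 and 14, so unmarked receptor genes were poorer in CG pairs than unmarked genes in general. Grik3 had 50 pairs, and 1.14% of all promoter windows had as many. Grin1 and Chrna4 had 33 each (11.4% of all windows), Htr5a 14 (51.1%) and Chrna10, whose subunit serves the efferent synapse of cochlear hair cells, 1 (95.0%). Exceptions ran both ways: Grin3b was retained with 3 CG pairs, and Adrb1, the cardiac beta receptor gene, had 28 and no cover in any library. The letters TATAAA, searched on both strands, were found in 4 of the 64 windows (6.25%) and in 13.5% of all windows.

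**Figure D5:**
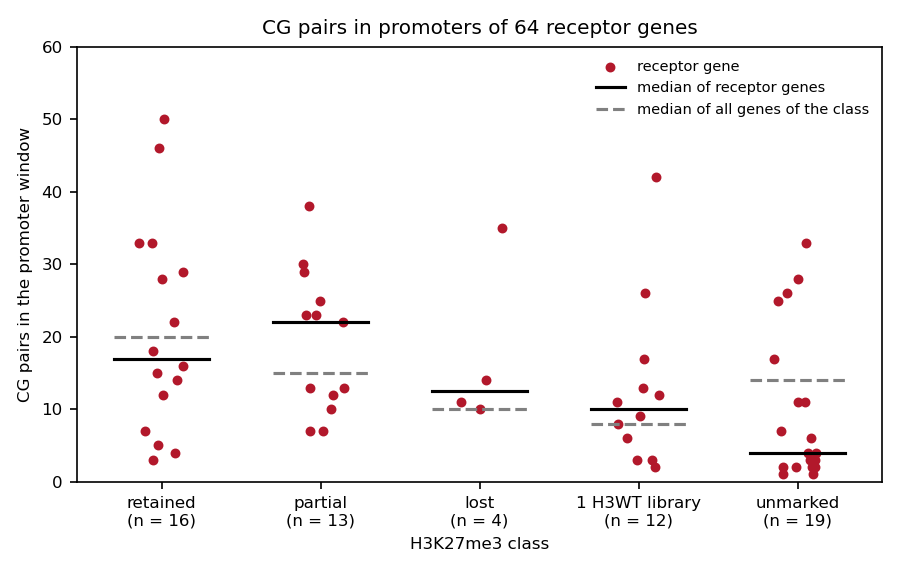
Number of CG pairs in the promoter window of each of the 64 receptor genes with a RefSeq promoter entry (points), by H3K27me3 class on the x axis, with the median of the receptor genes (solid line) and of all genes of the class (dashed line). The receptor genes unmarked at their ends have a median of 4 CG pairs against 14 over all unmarked genes, and the retained ones range from 3 to 50.

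Genes that serve the same synapses were read by the same rule. Over all genes 10.6% were marked in both H3WT replicates, and of those 42.8% were retained, 38.4% partial and 18.8% lost. Of 33 genes for transmitter synthesis, vesicular loading and reuptake, 13 were marked in both H3WT replicates, with 11 retained, 2 partial and 0 lost. Among them Slc32a1, the vesicular GABA transporter, had 25.7 and 26.7 kb in H3WT and 20.0 and 25.9 kb in K27M, and Slc17a7, a vesicular glutamate transporter, had 20.9 and 23.9 kb against 19.2 and 23.0 kb. These covered lengths were larger in K27M than that of any receptor gene. Of 39 genes for receptor scaffolds and auxiliary subunits 13 were marked (8 retained, 3 partial, 2 lost), and of 37 other receptor genes outside the symbol rule 13 (4, 4 and 5). Of 111 voltage-gated and potassium channel genes, the group most like the receptors, 41 were marked (36.9%), with 18 retained, 17 partial and 6 lost. Their retained genes had K27M covers of 49.9% and 67.7% of H3WT (medians), against 45.1% and 54.9% for the receptor genes.

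Of 12 neuron marker genes 7 (58.3%) were marked in both H3WT replicates, against 10.6% of all genes. Of 18 neural stem and glial progenitor marker genes 1 was (5.56%), Id4. As a contrast, 37 of 39 Hox genes were marked, all 37 retained and 34 of them marked in an EPZ library, while 1 receptor gene was. The median K27M cover of the retained Hox genes was 100% of H3WT, where the window around the gene ends is full and no wider domain could be seen.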

How the data were processed

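ChIP-seq peak lists of 12 libraries were used, and the 2 IgG libraries of the series were not analysed here. Bowtie 1.1.2 and mm10 are named in the submitters' processing notes, and the peak caller, its threshold and its control are not given in the sources used here. The authors deposited 1 list per library, so replicates were not pooled. The score column of the deposited lists is 0 in all 100144 lines, so no height or p-value per peak was used, and the deposited start and end positions are the values analysed. Peaks that touched were merged (21 lines), and the narrowest was 1001 bp. Read depth is unknown, so no counting interval is given.

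Genes came from RefSeq (GRCm38.p6). Strand and promoters came from a RefSeq promoter table with entries for 64 of the 91 receptor genes and 16457 of all genes. Groups and replicate numbers came from sample titles and descriptions. Covered length was compared between EPZ and DMSO for every gene with cover by a two-sided exact permutation test with Benjamini-Hochberg adjustment, and the program was tested on simulated data. Other comparisons are counts. Full values are given for the 12 genes with the widest mean cover among those marked in all 4 DMSO libraries, for genes with EPZ peaks, for up to 10 with Suz12 or Ring1b peaks, for up to 8 lost and 6 partial genes by H3WT cover, and for clusters; other named genes were chosen after their values were seen. The members and the gene lists were chosen with earlier results of these data known. Alternatives were windows of 5 kb, the whole gene, the gene start alone, peaks of at least 3 kb, overlaps of at least 500 bp, either replicate, each replicate left out, loci in place of genes, and Htra1 to Htra4 added. Python 3.11.15, numpy 2.4.6, pandas 2.3.3 and matplotlib 3.10.9 were used. Some receptor genes enter the counts and are not reported here by name.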

Additional observations from a re-analysis of the deposited data

How the results depend on the processing

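Of 98 counts recomputed under another setting, 74 stayed within 1.5 times the value reported and 24 did not. The partial, Suz12 and Ring1b counts were not among them for the whole gene, for either replicate or with a replicate left out. The number of receptor genes marked in both H3WT replicates was 31 with the gene start alone, of the 64 genes with a strand. Over the same 64 genes it was 33 with start or end. With peaks of at least 3 kb it was 31. Retained genes numbered 10 with peaks of at least 3 kb and 41 with a peak in either replicate, and 19 to 41 when a replicate was left out. Lost genes numbered 4 with the gene start alone, 4 with peaks of at least 3 kb and 23 with either replicate, and 23 to 30 when a replicate was left out. Over the 64 genes with a strand, with start or end (chosen after seeing the data), 13 genes were partial, 4 lost and 4 had Ring1b in K27M. None of the 9 genes called lost stayed in that class with peaks of at least 3 kb. With peaks of at least 3 kb, Suz12 was called at 1 receptor gene in H3WT and 1 in K27M, and Ring1b at 1 and 0; Ring1b in K27M was called at 4 genes with the gene start alone. Receptor genes marked in both EPZ replicates of H3WT numbered 0, and with either replicate 1, or 0 to 1 when a replicate was left out. Receptor genes with all 4 DMSO values above all EPZ values numbered 10 with peaks of at least 3 kb and 19 to 46 when a replicate was left out. Receptor genes with an unadjusted p below 0.05 in the permutation test numbered 10 with peaks of at least 3 kb, 0 with the replicate block, and 0 to 0 when a replicate was left out, where the smallest possible p is 0.333. The difference of K27M minus H3WT covered length changed sign at 0 of the 49 H3WT-marked receptor genes under the settings tried (5 kb windows, peaks of at least 3 kb, either replicate left out), and was 0 at Glra1 and Chrna7 with peaks of at least 3 kb. The labels do not say whether replicate numbers pair the samples. Over genes, the difference between replicates 1 and 2 correlated at 0.35 between the DMSO groups. The correlation was -0.45 between the EPZ groups and -0.07 to 0.03 otherwise. With relabelling within replicate numbers (36 relabellings, smallest p 0.0556), the permutation test called 0 genes with a smallest adjusted p of 0.352. With the K27M EPZ numbers crossed, an alternative chosen after seeing the data, the block also left 0 receptor genes with an unadjusted p below 0.05.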
